A study of Arabidopsis thaliana with 12 samples.

Results

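The JAZ genes of Arabidopsis thaliana encode repressors of the response to jasmonate, a plant hormone of wounding, defence and fertility. The 10 genes described here (JAZ1, JAZ2, JAZ3, JAZ5, JAZ6, JAZ7, JAZ8, JAZ9, JAZ10 and JAZ12) were picked by their gene IDs from the 27655 genes of the deposited expression table. All 10 entered the tests, and each had at least 1 TPM (a level per gene length, scaled to the same total in every library) in all 12 libraries. Expression was measured by RNA sequencing of total RNA from seedlings aged 3 weeks, grown at 22 °C in days of 16 h light and 8 h dark. There were 4 groups of 3 libraries. Col was the wild type. HTR5 was labelled as a knockout of the histone variant H3.3 (h3.3ko) carrying HTR5, an H3.3 gene. K4A was labelled as that same knockout carrying HTR5 with lysine 4 replaced by alanine, so HTR5 and K4A share the knockout. The last group was labelled sdg2, after a methyltransferase gene for lysine 4 of histone H3. The labels do not say which H3.3 genes were lost, which promoter drove the HTR5 copies, how many plants made up a library or how many transgenic lines were used, so the p-values measure the spread between these libraries, which may be technical.

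JAZ proteins bind MYC transcription factors and, with the adaptor NINJA and the corepressor TOPLESS, keep jasmonate-responsive genes off. The active hormone, jasmonoyl-isoleucine, brings JAZ proteins to the F-box receptor COI1, which leads to their breakdown and frees the MYC factors. Many JAZ genes are themselves activated by MYC factors, so their transcripts rise during the jasmonate response and new repressor is made in a negative feedback.

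The libraries held 13718753 to 14536028 reads in Col and HTR5 and 20725060 to 30364749 in K4A and the libraries labelled sdg2. Chloroplast-encoded genes took 0.155 to 0.431% of TPM in Col and HTR5, but 0.0292 to 0.0446% in the others, so for each mutant and its control depth and group cannot be told apart, while K4A against sdg2 and HTR5 against Col each stay within 1 set. SDG2 itself, the gene the sdg2 label names, was at 138.9 to 174.2 TPM in the libraries labelled sdg2 and at 18.35 to 24.23 TPM in Col, which goes against a loss of its transcript; directions drawn from these libraries rest on the label. HTR8, an H3.3 gene, was at 3.99 to 10.12 TPM in HTR5 and 3.986 to 5.64 TPM in K4A, against 233.6 to 248.6 TPM in Col. HTR4, another H3.3 gene, was still at 160.7 to 179.3 TPM in HTR5 and at 71.94 to 86 TPM in K4A, against 307.5 to 321.1 TPM in Col, which goes against a full loss of H3.3 transcripts other than HTR5 and differs between the 2 groups that carry the knockout label. Leaf markers were abundant in all groups, and 4 or 5 of the 6 root markers were under 1 TPM in each group.

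In TAIR10.1, JAZ1 (AT1G19180) at chr1:6621777-6623668, JAZ2 (AT1G74950) at chr1:28148574-28150446, JAZ3 (AT3G17860) at chr3:6119707-6123044, JAZ5 (AT1G17380) at chr1:5955155-5957511, JAZ6 (AT1G72450) at chr1:27273968-27276562 were read by their RefSeq spans. The other members are JAZ7 (AT2G34600) at chr2:14573030-14573952, JAZ8 (AT1G30135) at chr1:10596352-10597341, JAZ9 (AT1G70700) at chr1:26654529-26657350, JAZ10 (AT5G13220) at chr5:4218786-4221077 and JAZ12 (AT5G20900) at chr5:7090704-7092539. Of these genes 6 lie on chromosome 1, 2 on chromosome 5 and 1 each on chromosomes 2 and 3, and exons cover from 58.9% (JAZ12) to 96.6% (JAZ10) of the span. JAZ12 overlaps the annotated genes AT5G03235 by 211 bases (11.5% of its span) and AT5G20910 by 28 bases, and JAZ10 overlaps AT5G02045 by 71 bases, so some of their reads may belong to those genes. The promoters of 3 members are shown because they hold the G-box that MYC factors bind, JAZ7 and JAZ8 as the members with the largest K4A difference and JAZ3 as one with a smaller difference. Each is the 250 bases before the RefSeq gene start in TAIR10.1, 5′ to 3′ on the strand of the gene. Capitals mark the motifs searched on both strands: the G-box CACGTG, its variant AACGTG, the W-box TTGACC or TTGACT (bound by WRKY factors) and the evening element AAAATATCT of clock-regulated genes.
JAZ7 promoter, chr2:14572780-14573029, plus strand: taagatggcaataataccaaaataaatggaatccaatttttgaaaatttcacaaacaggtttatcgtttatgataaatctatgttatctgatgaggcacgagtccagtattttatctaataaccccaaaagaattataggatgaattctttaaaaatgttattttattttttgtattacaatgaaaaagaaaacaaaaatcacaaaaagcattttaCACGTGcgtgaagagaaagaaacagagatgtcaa
JAZ8 promoter, chr1:10596102-10596351, plus strand: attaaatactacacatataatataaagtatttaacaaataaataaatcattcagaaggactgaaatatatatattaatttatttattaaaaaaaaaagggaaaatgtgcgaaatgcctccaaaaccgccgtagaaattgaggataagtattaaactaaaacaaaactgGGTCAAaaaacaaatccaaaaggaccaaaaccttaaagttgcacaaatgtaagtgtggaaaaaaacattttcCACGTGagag
JAZ3 promoter, chr3:6119457-6119706, plus strand: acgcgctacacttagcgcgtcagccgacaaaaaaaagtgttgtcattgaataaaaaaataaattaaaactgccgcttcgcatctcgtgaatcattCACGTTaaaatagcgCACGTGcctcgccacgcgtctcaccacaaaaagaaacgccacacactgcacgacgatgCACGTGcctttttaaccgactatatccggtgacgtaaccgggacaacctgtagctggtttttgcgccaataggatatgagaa

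The G-box was found in 4 of the 9 member promoters searched and in 7.28% of 20767 promoters of that length. JAZ7 holds it with its first base 34 bases before the gene start, JAZ8 10 bases before, JAZ2 66 bases before, and JAZ3 holds 2 copies, 140 and 82 bases before. The variant AACGTG was in 4 members (JAZ3, JAZ5, JAZ6 and JAZ12) and in 7.42% of promoters. The W-box was in 2 members (JAZ8 and JAZ12) and in 28.4% of promoters. The evening element was in JAZ10 and in 2.55% of promoters. JAZ9 holds none of these motifs in this window.

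In Col the family spanned a wide range of levels. JAZ9 (133 ± 4.38 TPM, SD, n = 3) and JAZ12 (131 ± 5.07 TPM) were highest and their libraries overlapped. JAZ6 followed at 88.6 ± 4.91 TPM, JAZ2 at 42.6 ± 3.92 TPM, JAZ1 at 22.0 ± 2.56 TPM and JAZ3 at 17.8 ± 0.458 TPM, none of which overlapped with its neighbours in the order. JAZ5 at 9.63 ± 1.34 TPM and JAZ10 at 7.82 ± 1.0002 TPM overlapped, and JAZ7 at 1.87 ± 0.336 TPM and JAZ8 at 1.86 ± 0.561 TPM, the lowest, overlapped as well. The highest member was 71.8 times the lowest. The deposited values are per whole gene span, introns included; with summed exon length in its place JAZ12 came first at 167.6 TPM and JAZ9 second at 153 TPM in Col.

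**Figure D1:**
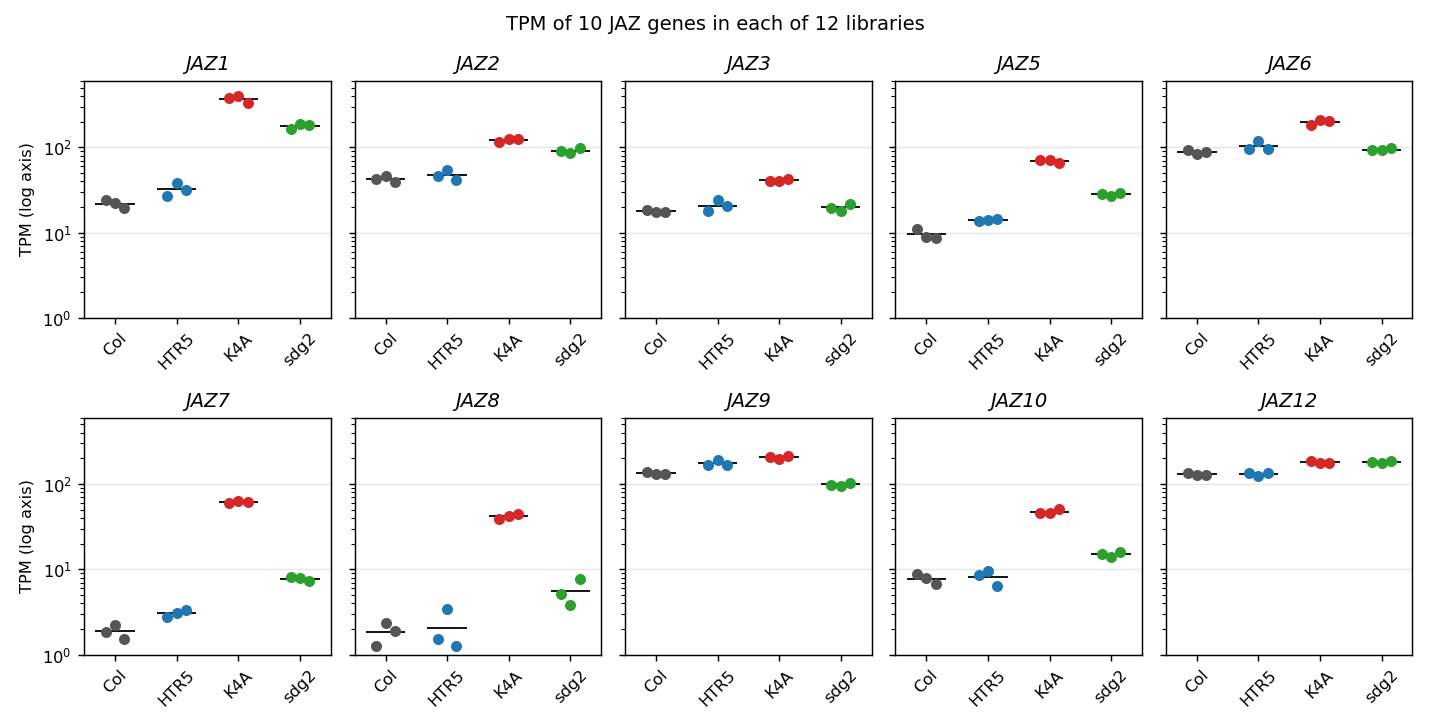
Level of each JAZ gene (TPM, log axis) in each of the 12 libraries, by group, with a point per library and a bar at the group mean. JAZ7, JAZ8, JAZ1, JAZ10 and JAZ5 are highest in all 3 K4A libraries and second in the libraries labelled sdg2, while JAZ9 and JAZ12 run from 93.96 to 210.9 TPM.

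K4A and HTR5 differ, by their labels, in lysine 4 of the HTR5 copy, and by their transcripts also in the level of HTR4 given above. All 10 members were higher in K4A, and the groups did not overlap for any of them. Across all 20881 genes tested, 42.5% were called higher, 42.1% did not overlap in that direction, and 5451 were called lower. The median log2 difference was 1.79 over the members and 0.14 over all genes. Of the members, 6 were called and at least 2-fold higher by the log2 difference, as were 13.4% of all genes. Folds given per gene are ratios of mean TPM, so JAZ3, at 2.004-fold but log2 0.98, is not among the 6. Calls are at an adjusted p under 0.05 in limma on log2(TPM + 1), Benjamini-Hochberg adjusted over all genes tested, and log2 differences are on that scale.

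JAZ1, a repressor that binds the MYC factors and ICE1, was at 26.8, 37.9 and 31.7 TPM in HTR5 and at 382, 402 and 333 TPM in K4A. Every K4A library was far above every HTR5 library, 11.6-fold in the means. The log2 difference was 3.50 ± 0.114 (SE; limma adjusted p = 5.15e-13). JAZ2, its closest relative, was at 46.5, 53.8 and 42.0 TPM in HTR5 and at 115, 125 and 124 TPM in K4A. JAZ2 rose 2.56-fold, with a log2 difference of 1.34 ± 0.0912 (limma adjusted p = 3.01e-09).

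JAZ7 and JAZ8 encode short repressors that lack the usual hormone-dependent degron; JAZ8 recruits the corepressor TOPLESS directly through an EAR motif, and JAZ7 has been linked to dark-induced senescence. JAZ7 was at 2.76, 3.11 and 3.38 TPM in HTR5 and at 60.0, 63.1 and 61.2 TPM in K4A, resting on 17 to 20 reads per HTR5 library and 498 to 655 per K4A library. JAZ8 was at 1.52, 3.41 and 1.2603 TPM in HTR5 and at 38.7, 42.5 and 44.5 TPM in K4A, on 8 to 20 and 351 to 473 reads. Both groups are far apart in both genes, and the HTR5 libraries of JAZ8 vary among themselves by more than those of JAZ7. The fold of the means was 19.9 for JAZ7 (log2 difference 3.94 ± 0.112, limma adjusted p = 1.17e-13) and 20.3 for JAZ8 (3.87 ± 0.240, limma adjusted p = 9.97e-10), the members that differed by most.

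JAZ10, whose splice variants resist hormone-driven breakdown and which is known for feedback on the response, was at 8.51, 9.49 and 6.33 TPM in HTR5 and at 46.3, 45.6 and 51.0 TPM in K4A. JAZ10 rose 5.87-fold (log2 2.43 ± 0.126, limma adjusted p = 1.18e-10). JAZ5 was at 13.6, 14.1 and 14.3 TPM in HTR5 and at 71.4, 71.4 and 65.9 TPM in K4A, a 4.97-fold rise (log2 2.23 ± 0.0892, limma adjusted p = 5.29e-12). Neither gene had a K4A library near an HTR5 one. JAZ6, a relative of JAZ5 with a role in defence against Botrytis that varies over the day, was at 95.6, 119 and 94.6 TPM in HTR5 and at 182, 207 and 204 TPM in K4A, a 1.92-fold rise. JAZ3, the gene of the jai3 mutant, was at 17.8, 24.04 and 20.4 TPM in HTR5 and at 40.9, 40.9 and 43.0 TPM in K4A, a 2.004-fold rise.

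The 2 most abundant members in HTR5 changed least. JAZ12, a partner of the ubiquitin ligase KEG, was at 134, 124 and 137 TPM in HTR5 and at 187, 178 and 175 TPM in K4A, 1.37-fold higher (log2 0.45 ± 0.0562, limma adjusted p = 3.50e-06). JAZ9, which also binds the DELLA protein RGA, was at 166, 189 and 168 TPM in HTR5 and at 206, 199 and 211 TPM in K4A, 1.18-fold higher (log2 0.23 ± 0.0629, limma adjusted p = 0.00376). The call of JAZ9 is lost where libraries are scaled so that the median gene does not move: its log2 difference was 0.08 (adjusted p = 0.139) with median-of-ratios scaling. Against Col, the other control, all 10 members were again higher in K4A, from 0.46 (JAZ12) to 4.45 (JAZ7) on the log2 scale, and JAZ9 was at 0.62. The HTR5 libraries share replicate 2 as their highest for 7 of the 10 members, and without it all 10 calls remained.

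**Figure D2:**
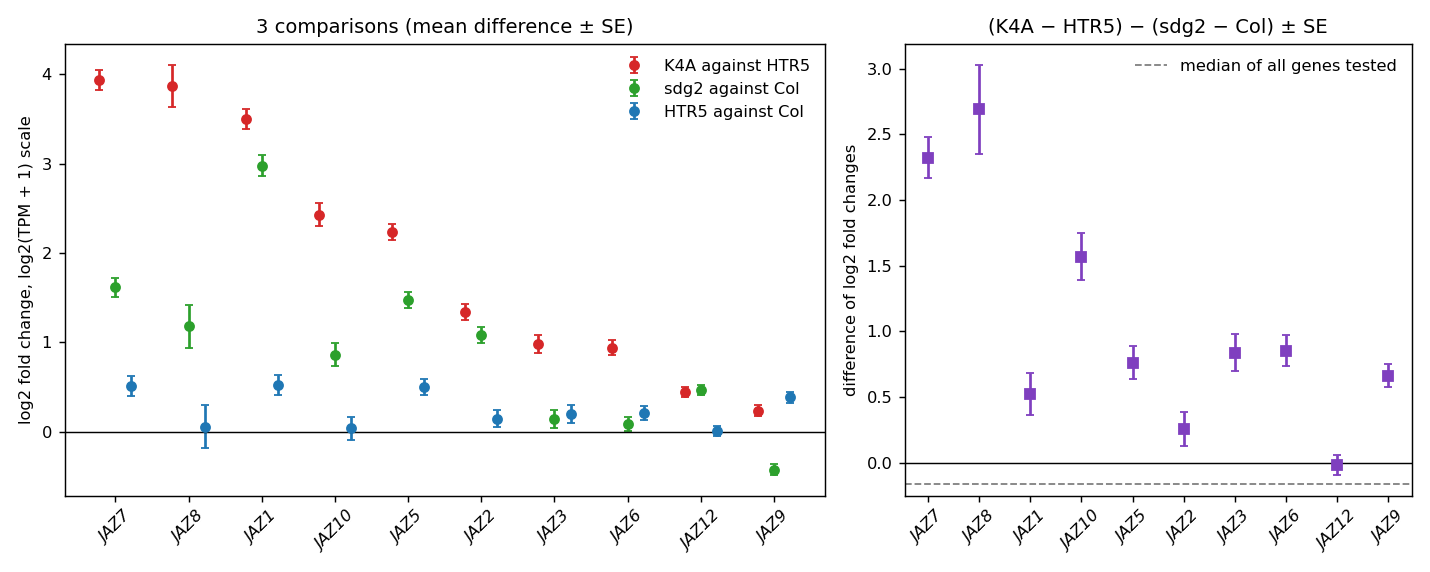
Log2 difference of each JAZ gene ± SE in 3 comparisons (left), and the difference of effects ± SE with a dashed line at the median of all genes tested (right). In K4A against HTR5 all 10 lie above 0, from 0.23 (JAZ9) to 3.94 (JAZ7), and in sdg2 against Col JAZ9 lies below 0.

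The comparison of the libraries labelled sdg2 with Col asks the same of a line named for a methyltransferase. Here 7 members were higher, 1 was lower and 2 were not called, against 52.4% of all genes called higher and 20.7% lower. The libraries did not overlap for 7 members that were higher and 1 that was lower, as for 55.7% and 22.7% of all genes. The count of members is close to what most genes did, and the members' median log2 difference was 0.97 against 0.31 over all genes. Of the members, 5 were called and at least 2-fold higher, beside 14.6% of all genes.

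JAZ1 led, at 24.5, 22.0 and 19.4 TPM in Col and 164, 191 and 185 TPM in the libraries labelled sdg2. All sdg2-labelled libraries lay above all Col libraries, 8.18-fold in the means (log2 2.98 ± 0.114, limma adjusted p = 2.78e-12). JAZ7 was at 1.87, 2.21 and 1.54 TPM in Col, on 9 to 13 reads per library, and at 8.09, 7.85 and 7.37 TPM in the libraries labelled sdg2 (log2 1.62 ± 0.112, limma adjusted p = 3.50e-09). JAZ8 was at 1.27, 2.38 and 1.92 TPM in Col and at 5.20, 3.84 and 7.66 TPM in the libraries labelled sdg2, and the groups did not overlap (log2 1.18 ± 0.240, limma adjusted p = 0.000403).

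JAZ5 was at 11.2, 9.01 and 8.72 TPM in Col and at 28.5, 27.3 and 29.4 TPM in the libraries labelled sdg2, 2.94-fold higher. JAZ2 was at 42.3, 46.7 and 38.8 TPM in Col and at 90.9, 85.0 and 98.7 TPM in the libraries labelled sdg2, 2.15-fold higher. JAZ10 was at 8.75, 7.96 and 6.76 TPM in Col and at 15.02, 14.05 and 15.87 TPM in the libraries labelled sdg2, 1.91-fold higher. None of these 3 genes overlapped between the groups, and the limma adjusted p was at most 1.77e-05 (JAZ10).

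JAZ12 was at 136, 127 and 129 TPM in Col and at 179, 179 and 185 TPM in the libraries labelled sdg2 (log2 0.47 ± 0.0562, limma adjusted p = 2.09e-06), but its call was lost with median-of-ratios scaling (log2 0.13, adjusted p = 0.162). JAZ9 was lower, at 138, 132 and 130 TPM in Col and at 98.8, 94.0 and 104 TPM in the libraries labelled sdg2 (log2 -0.43 ± 0.0629, limma adjusted p = 1.87e-05). JAZ3 (log2 0.14, 95% interval -0.07 to 0.36) and JAZ6 (0.09, -0.09 to 0.26) were not called, and both were called lower with scalings that hold the median gene still, at log2 -0.18 and -0.25 with median-of-ratios scaling. That scaling moves the median gene from 0.31 to 0.01.

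The group means of K4A and of the libraries labelled sdg2 were compared directly, and so was the difference of their effects, (K4A minus HTR5) minus (sdg2 minus Col). In K4A against sdg2, 9 members were higher, against 20.4% of genes called higher, and 8 were called and at least 2-fold higher, against 4.93% of genes. By the labels only K4A carries the knockout and an HTR5 copy, so this direct comparison also holds what that background changes. The median log2 difference was 1.05 over members and -0.08 over all genes, and 8 of the members were among the top 5% of genes. JAZ7 (log2 2.83 ± 0.112, 7.90-fold) and JAZ8 (2.75 ± 0.240, 7.52-fold) differed by most. JAZ10 (log2 1.60), JAZ5 (1.264), JAZ6 (1.06), JAZ9 (1.05), JAZ1 (1.04), JAZ3 (1.03) and JAZ2 (0.40) were also higher. JAZ12 was not called, with a log2 difference of -0.01 (95% interval -0.13 to 0.11).

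The difference of effects was above 0 and called for 8 members, beside 14.1% of genes called higher. In it 3 members were called and at least 2-fold higher, beside 1104 of all 20881 genes. JAZ8 was 2.69 ± 0.340 on the log2 scale (limma adjusted p = 1.85e-05) and JAZ7 was 2.32 ± 0.158 (limma adjusted p = 2.96e-08). JAZ2 (0.26, 95% interval -0.02 to 0.53) and JAZ12 (-0.02, -0.19 to 0.15) were not called; JAZ2 was called with median-of-ratios scaling (0.44). JAZ1, high in both comparisons, differed between them by 0.52 ± 0.161 (limma adjusted p = 0.0174), and without the first sdg2-labelled library its adjusted p was 0.0503.

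The HTR5 rescue was compared with Col to show what the knockout carrying HTR5 shows without the lysine change. JAZ1 (log2 0.52, limma adjusted p = 0.00882), JAZ7 (0.51, 0.00874), JAZ5 (0.50, 0.00195) and JAZ9 (0.38, 0.000957) were higher, against 5.5% of genes called higher. Their libraries did not overlap between the groups, nor did those of JAZ6, and 16.4% of all genes were higher without overlap. The other 6 were not called, from JAZ6 (0.21, 95% interval 0.03 to 0.39, adjusted p = 0.134) to JAZ12 (0.01, -0.11 to 0.13). These calls rest on the spread shared with the other groups: with only the compared groups in the fit, JAZ9 alone was called, and the adjusted p of JAZ1 was 0.104. Without the third Col library the adjusted p of JAZ1 was 0.0535.

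Summed over the members, JAZ transcripts made up 456 ± 18.7 TPM in the wild type and 536.8 ± 35.99 TPM in HTR5, and reached 1339 ± 32.5 TPM in K4A and 721.8 ± 26.8 TPM in the libraries labelled sdg2. JAZ1 took 4.81% of that sum in Col and 5.96% in HTR5, but 27.8% in K4A and 24.9% in the libraries labelled sdg2. JAZ6, JAZ9 and JAZ12 together took 77.3% in Col and 76.3% in HTR5, but 43.6% in K4A and 51.8% in the libraries labelled sdg2. The order of members changed too: in K4A JAZ1 was first and JAZ9, JAZ6 and JAZ12 followed with libraries that overlapped from 1 to the next, and the highest was 8.96 times the lowest. In the libraries labelled sdg2 JAZ12 and JAZ1 overlapped at the top, and the ratio was 32.5.

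**Figure D3:**
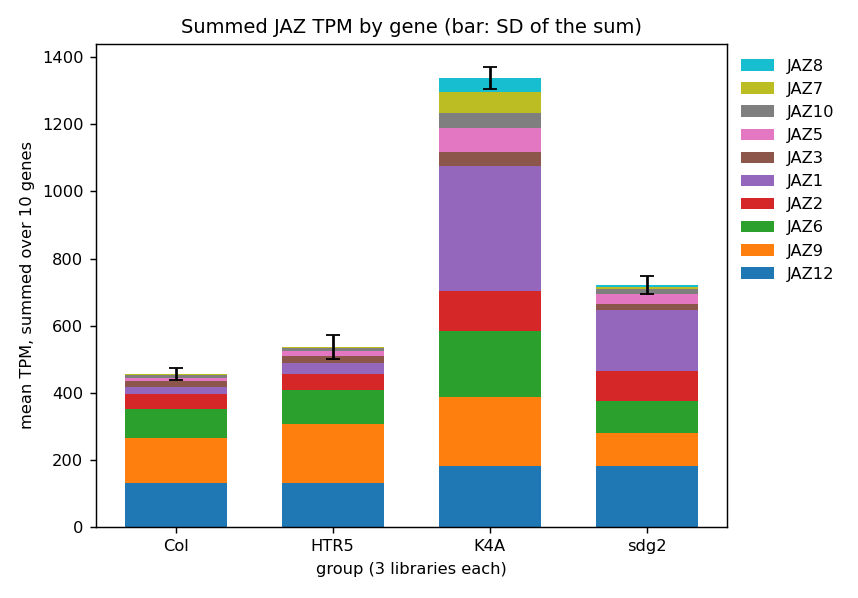
Mean TPM of each JAZ gene stacked by group, with bars for the SD of the sum over 3 libraries. The K4A sum of 1339 TPM is the highest and JAZ1 takes 27.8% of it, while JAZ6, JAZ9 and JAZ12 take most of the Col sum. Levels are per whole gene span, and the shares depend on that length.

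Members with a lower level in Col tended to have a larger K4A difference. Over the 10 members the level in Col and the log2 difference in K4A against HTR5 were related with Pearson's r = -0.88 and Spearman's rho = -0.89; over all genes tested these were -0.21 and -0.15. The level in HTR5 and the sdg2-against-Col difference had an r of -0.47 and a rho of -0.62, against -0.21 and -0.16 over all genes tested. The K4A and sdg2 differences, which share no library, had an r of 0.79 and a rho of 0.85 over the members and 0.75 and 0.73 over all genes. These describe 10 genes that share libraries, and carry no test.

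The rest of the pathway was read from lists of genes, by the role of each, chosen with earlier results of these data known. Their counts, medians and single-gene values are description. Among 11 genes of the receptor complex and corepressors, 10 rose in K4A (median log2 difference 0.29 against HTR5) and 9 in the libraries labelled sdg2 (0.50 against Col). With median-of-ratios scaling these counts were 5 and 6, with medians of 0.14 and 0.17, 2 genes were called lower in sdg2 against Col, and the sign of TPL and ASK1 turned in sdg2 against Col. COI1, the receptor, was at 0.07 in K4A (not called, but called lower with quantile scaling) and 0.38 in sdg2 against Col. The sign of HDA6, from the same list, also turned in K4A against HTR5 with quantile scaling. The corepressor TPR3 was at 0.85 and 0.62, and the scaffold CUL1 at 0.63 and 0.93.

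The next list held the MYC and JAM factors that JAZ proteins bind or that oppose MYC, and the Mediator subunit MED25. Of 7 genes tested, 4 rose and 1 fell in K4A against HTR5, and 5 and 2 in sdg2 against Col (3 and 2 with median-of-ratios scaling). Called higher were 42.5% and 52.4% of all genes, and 20.7% were lower in sdg2 against Col. MED25 rose by 1.28 and 1.44 on the log2 scale and MYC3 by 0.79 and 1.01. MYC5 was lower, at -1.54 and -1.51, from 2.23 TPM in HTR5 and 4.15 TPM in Col. MYC2, the best known of these factors, was listed at 0 in all 12 libraries; 98.5% of its span overlaps the annotated gene AT1G32630, so no level of MYC2 can be given.

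Genes of both response branches were read next. Of 9 MYC-branch genes, 7 rose and 1 fell in K4A (median log2 1.57 against HTR5), and 7 rose and none fell in sdg2 against Col (median 0.89). With median-of-ratios scaling the second comparison had 6 higher and 2 lower (median 0.55), and the signs of LOX2 and CORI3 turned. The transcription factor genes ANAC019 (3.73 and 3.21) and ANAC055 (3.68 and 3.11) differed by most in K4A, and the aminotransferase gene TAT3 (2.45 and 3.40) in the libraries labelled sdg2. The storage protein gene VSP2 was at 1.57 and 1.25, but VSP1 was at -0.29 in K4A and 0.89 in sdg2; these are close copies, and reads may have been split between them. Of 8 ERF-branch genes, 4 were higher and 4 lower in both comparisons, and 3 and 4 in sdg2 against Col with median-of-ratios scaling. ERF1 (2.63 and 2.78) and ORA59 (1.43 and 1.58) rose, and the thionin gene THI2.1 fell, at -2.06 and -3.22. The HTR5 control was itself low for this list. In HTR5 against Col 6 of the 8 were called lower, 4 of them at least 2-fold, beside 790 of all 20881 genes called lower. ORA59 was at 5.32 TPM in Col, 2.14 TPM in HTR5, 7.40 TPM in K4A and 17.6 TPM in the libraries labelled sdg2. PDF1.2a, a defensin gene with close copies, was at 334.8 TPM in the wild type, 31.0 TPM in HTR5, 10.6 TPM in K4A and 80.98 TPM in the libraries labelled sdg2.

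Most genes of jasmonate synthesis and turnover were higher in both comparisons. In K4A against HTR5 42.5% of all genes were higher (median log2 0.14), and in sdg2 against Col 52.4% were (0.31). Of 12 synthesis genes, 11 rose in K4A (median log2 1.44 against HTR5), and 8 rose and 2 fell in sdg2 against Col (median 1.08). The lipoxygenase genes LOX4 (4.13 and 2.97) and LOX3 (3.78 and 2.13) and the cyclase gene AOC3 (3.82 and 2.46) led. AOS, the first committed step, was at -0.05 in K4A, not called, and was lower in sdg2 against Col (-0.63). With median-of-ratios scaling, quantile scaling or limma-voom, AOS was the 1 synthesis gene called lower in K4A against HTR5. Of 11 turnover genes tested, 10 were higher and 1 lower in K4A (median 2.18), and 9 and 2 in sdg2 against Col (median 1.22). CYP94B3, which oxidises jasmonoyl-isoleucine, rose from 0.631 TPM in HTR5 to 93.0 TPM in K4A (log2 5.85), and was at 3.26 TPM in the libraries labelled sdg2 against 0.844 TPM in Col (1.31). The jasmonic acid oxidase genes JOX3 (3.92 and 2.97) and JOX4 (3.57 and 1.87) and the sulfotransferase gene ST2A (3.12 and 1.46) rose in both. JMT, a methyltransferase, was lower in both, at -1.28 and -1.18.

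Of the other JAZ and TIFY genes, 5 were tested. Of these 2 rose and 1 fell in K4A against HTR5, and 3 and 1 in sdg2 against Col (1 and 1 with median-of-ratios scaling). Both counts of higher genes are near the shares over all genes, 42.5% and 52.4%. JAZ11 had 13.6 TPM in the wild type, 11.8 TPM in HTR5, 19.6 TPM in K4A and 21.8 TPM in the libraries labelled sdg2 (log2 0.69 and 0.64). JAZ13 was at -0.12 (not called) and 0.59. Of 6 stamen and epidermal partners, 1 was higher and 3 lower in K4A, and 3 were lower in sdg2 against Col; MYB21 (-1.27 and -0.71) and MYB24 (-1.72 and -0.96), jasmonate-dependent stamen factors, fell in both.

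**Figure D4:**
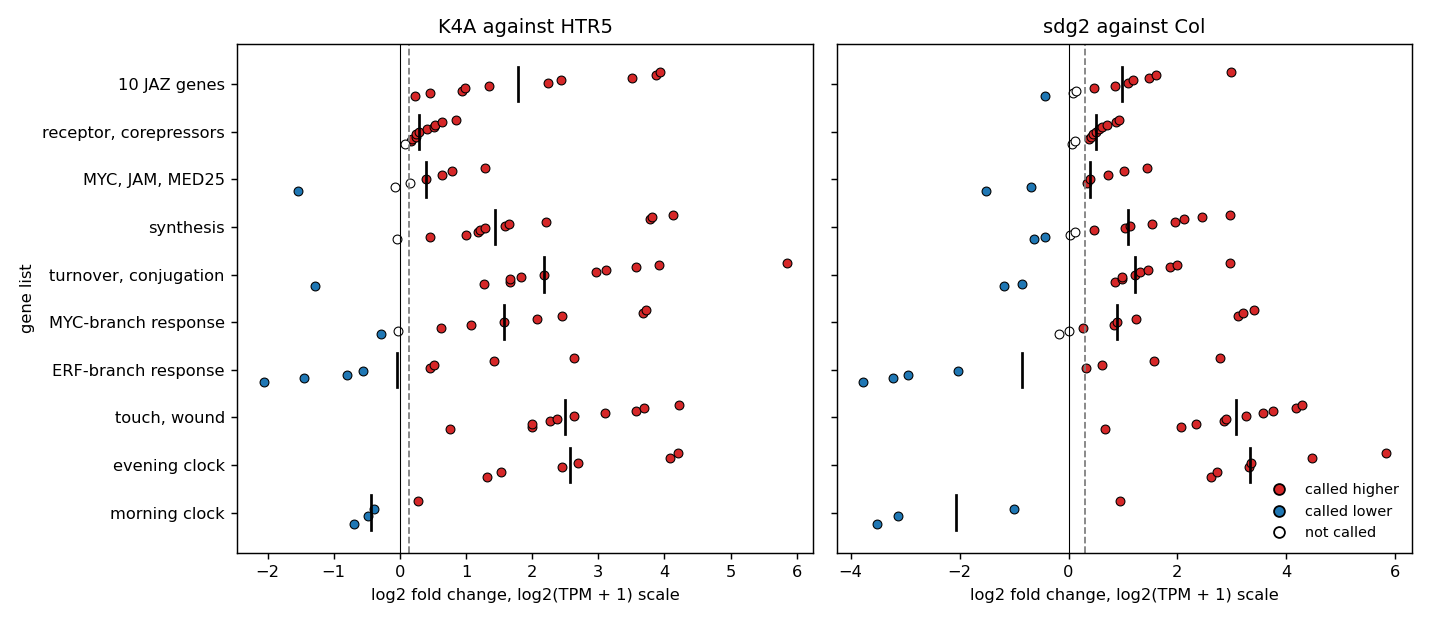
Log2 differences of the genes of each list in K4A against HTR5 and sdg2 against Col, with a point per gene coloured by its call, a bar at the median of each list and a dashed line at the median of all genes. The turnover and synthesis lists have medians of 2.18 and 1.44 in K4A, and the corepressor list lies near 0.29.

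Other genes moved with the members. All 10 touch and wound genes were higher in both comparisons (median log2 2.50 and 3.08). They were also higher in HTR5 against Col (1.17), as were 5.5% of all genes. Their summed level was 110 to 115 TPM in the wild type, 262.2 to 304.1 TPM in HTR5, 1601 to 1705 TPM in K4A and 975.7 to 1014 TPM in the libraries labelled sdg2. In K4A against sdg2 8 of them were higher and 1 lower, but in the difference of effects 1 was higher and 5 lower. With median-of-ratios scaling that difference had 4 higher and 4 lower. Of all 20881 genes, 5556 were called lower in it in the main fit. All 7 salicylic acid defence genes were higher in both mutant-against-control comparisons (median 1.80 and 3.36), but 6 were lower in K4A against sdg2, the opposite of the members. With median-of-ratios scaling 5 of these 7 were lower. Of the evening clock genes 5 were lower in K4A against sdg2 as well (median log2 -1.04). Among all 20881 genes, 6228 were called lower in K4A against sdg2. The 6 evening clock genes summed to 35.78 to 40.97 TPM in the wild type, 39.87 to 47.17 TPM in HTR5, 288.6 to 305.6 TPM in K4A and 504.9 to 530.3 TPM in the libraries labelled sdg2, and the labels give no hour of harvest. The 5 pollen markers summed to 121.8 to 174.8 TPM in the wild type, 118.1 to 127 TPM in HTR5, 9.033 to 11.82 TPM in K4A and 240.4 to 255.5 TPM in the libraries labelled sdg2, and none was at 0 in a whole group. Of 4 leaf markers 3 were lower in K4A against HTR5 (median log2 -0.87) and 4 in sdg2 against Col (median -1.08). The Rubisco gene RBCS1A had 14155 TPM in HTR5 and 7105 TPM in K4A, and 13680 TPM in the wild type and 5024 TPM in the libraries labelled sdg2, though its sign turned with quantile scaling. Of 4 flower organ markers, 4 were lower in K4A against HTR5 (median -0.46), and 2 were higher and 2 lower in sdg2 against Col. The part of handling, harvest hour or tissue makeup in the members' levels was not tested; in bulk tissue, fewer cells of a type and less RNA per cell cannot be told apart.

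Genes beside the members on the chromosome moved in both directions. Of 20 flanking genes tested, 9 were higher, 5 lower and 6 not called in K4A against HTR5 (median log2 0.12), and 11 were higher and 4 lower in sdg2 against Col (median 0.39). These counts are near the shares of all genes called higher, 42.5% and 52.4%. The gene that rose by most, AT5G13210 beside JAZ10, was at 2.93 and 1.72.

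For each member the genes most alike over the 12 libraries were found by Pearson r of log2(TPM + 1), as a description. JAZ5 was most like AOC3, the cyclase gene above (r = 0.9977). JAZ1 was most like the sugar transporter gene STP4 (r = 0.9984) and the kinase gene CPK28 (0.9982), and 401 genes had an r of at least 0.98 with it. JAZ7 was most like AT1G02660 (0.9965) and DIN10 (0.9945), a dark-inducible gene. JAZ10 was most like the gibberellin oxidase gene GA2OX6 (0.9963), and JAZ2 most like LTI30 (0.9951). JAZ9 had 3 genes at 0.98 or above, SEN1 first (0.9836). JAZ3 (PP2-A5, 0.9910), JAZ6 (BPS1, 0.9905), JAZ8 (AT4G01090, 0.9934) and JAZ12 (AT5G64430, 0.9966) had other partners.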

How the data were processed

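RNA sequencing was done on 12 libraries in 4 groups, set by the sample titles. The authors deposited TPM for 27655 genes; fastp 0.20.1, HISAT2, DESeq2 1.26.0 and the TAIR10 build are named per the submitters' processing notes, and the counting tool, annotation and use of strand are not given in the sources used here. Per the deposited TPM and the RefSeq gene spans of TAIR10.1, at least 99.9779% of non-zero values in each library came out as whole reads within 0.01, so each member's reads were recovered and used in an alternative test. From the TPM, limma 3.58.1 in R 4.3.3 fitted log2(TPM + 1) over all 12 libraries, for the 20881 genes that reached 1 TPM in 3 or more libraries, with moderated variances and Benjamini-Hochberg adjustment, called at 0.05. The pseudocount understates the change of low genes. Alternatives were pseudocounts of 0.1 and 0.5, no filter, a mean TPM of at least 5, median-of-ratios and quantile scaling, only the compared groups, a replicate block, limma-voom on recovered reads, Col as control of K4A, and each library left out. The tests were tried on simulated data. Promoters of 9 members were searched for motifs; the other is not reported here. Named genes were the members, the listed genes and the 2 most alike per member. The members and lists were chosen with earlier results of these data known. Lists are therefore described by counts, medians and single-gene values, with no test of a list as a whole. Same-numbered libraries did not deviate together (correlations of -0.14 to 0.07 over 18 pairs).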

Additional observations from a re-analysis of the deposited data

Results flagged for a closer look

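For 8 members the K4A-against-HTR5 effect differed from the sdg2-against-Col effect, by the limma test of the difference itself, adjusted over all genes tested, with the SDG2 transcript high in the libraries labelled sdg2. The log2 difference of effects was 2.69 for JAZ8, 2.32 for JAZ7, 1.57 for JAZ10, 0.85 for JAZ6, 0.84 for JAZ3, 0.76 for JAZ5, 0.66 for JAZ9 and 0.52 for JAZ1, each higher in K4A on the signed scale, with adjusted p from 2.96e-08 (JAZ7) to 0.0174 (JAZ1). Among all genes tested 14.1% were called higher in this difference, and the median gene was at -0.16. For JAZ9 the 2 effects had opposite signs in the main fit, 0.23 and -0.43, so the K4A effect was the smaller in size. That K4A effect was not called with median-of-ratios scaling (0.08), quantile scaling (0.02) or limma-voom (0.075). Without the first sdg2-labelled library, the limma adjusted p of the JAZ1 difference was 0.0503.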

How the results depend on the processing

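Of 1050 log2 differences of members under the alternatives, 1029 were counted as the same, 11 lost the call and 4 gained one. The other 6 turned sign with a call in the main fit or the alternative. A sign change where neither fit made a call was counted as the same, so the 1029 may hold such changes. The 6 that turned with a call were JAZ3 and JAZ6 in sdg2 against Col. They were at -0.18 and -0.25 with median-of-ratios scaling, -0.21 and -0.20 with quantile scaling, and -0.20 and -0.26 with limma-voom. The median gene moves from 0.31 to 0.01 with median-of-ratios scaling, by its construction. With only the compared groups in the fit, HTR5 against Col called 1 member instead of 4 and 688 genes instead of 1938, with fewer samples to set the spread. Leaving out 1 library gave 1173 to 2669 genes in that comparison (1173 without Col replicate 2, 1182 without Col replicate 3) and 3 to 4 members, and left 10 members called for K4A with HTR5 as control, 8 for sdg2 with Col, 9 for K4A with sdg2 and 7 to 9 for the difference of effects. With the replicate block the members called were 10, 8, 4, 9 and 8, in the order K4A with HTR5, sdg2 with Col, HTR5 with Col, K4A with sdg2 and the difference of effects, as without it; a library was closest to its own number in 12 of 36 cases, so the numbers do not pair. Depth limits JAZ7 and JAZ8, with as few as 8 reads in a Col or HTR5 library.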
